A study of Mus musculus with 12 samples.

Results

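The *nm1054* mutation was compared with WT on the 129 background in 6 of the 12 whole brains of the series. All 3 arrays of *nm1054* 129S6/SvEvTac (129) brains and all 3 arrays of WT 129S6/SvEvTac brains entered the comparison, which runs across every probe and is given as *nm1054* minus WT. The mice were homozygous for *nm1054*, a spontaneous deletion on chromosome 1 that removes *Cfap221*, *Dbi* (also named *Acbp*), *Sctr*, *Steap3*, *Tmem37* and *3110009E18Rik*, or were WT, and all were taken at postnatal day 1 (P1). The other 6 brains, 3 WT B6 and 3 *nm1054* B6 from C57BL6/J mice of the same age, share the estimate of the spread and give a second background. The study's methods describe a bacterial artificial chromosome with *Steap3* for the *nm1054* B6 mice alone. Each group held male and female mice, and nothing in the sources used here names the litter or the beadchip of a brain. Because the deletion removes several genes at once, a difference between genotypes cannot be assigned to the loss of any single gene. The line was maintained by breeding on each background, and the sources used here do not say how much chromosome 1 sequence of the founder strain remains beside the deletion.

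The deleted genes belong to unrelated pathways. *Cfap221* encodes a protein of the motile cilium, whose beating on ependymal cells moves cerebrospinal fluid through the ventricles. *Dbi* encodes the acyl-CoA-binding protein, which carries long-chain fatty acids in their activated form, and peptides made from it act on GABA-A receptors. *Steap3* encodes a reductase that red cell precursors use to take up iron. *Sctr* encodes the receptor for the hormone secretin, and *Tmem37* a protein related to calcium channel subunits.

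The Illumina MouseWG-6 arrays held 45281 probes in a single colour. Each value is a log2 intensity set against the median of its probe over the 12 arrays, so that 0 marks the middle brain of the series and nothing records how bright a probe is. Presence of brain markers could therefore not be checked as a level, and an undetected gene looks the same as a faint one. In whole tissue, fewer cells of a type and less RNA per cell cannot be told apart. The 6 array medians lay between -0.0363 (*nm1054* 129 replicate 3) and 0.113 (WT 129 replicate 1). Sex was not balanced between the groups. *Xist*, which is transcribed from the inactive X chromosome of females, was high in WT 129 replicates 2 and 3 and in *nm1054* 129 replicate 1. The Y-linked genes *Eif2s3y* and *Kdm5d* were high in the other 3 brains, whereas Y-linked *Uty* did not separate the brains in this way at every probe. The pituitary hormone genes *Gh*, *Pomc* and *Cga* were far higher in *nm1054* 129 replicate 1 than in any other brain. Replicates of a genotype differed by a median SD of 0.107 (WT) and 0.131 (*nm1054*) log2 units, and the median SE of a difference was 0.131. The p-values rest on the spread within groups over all 12 brains, B6 included, which limma adjusts with the spread of the other probes.

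On 129 the genotypes differed by less than 1.5-fold at 45238 of the 45281 probes. A difference was called where limma's adjusted p was under 0.05 and the fold change over 1.5, and 9 probes met this, 3 of them higher and 6 lower in *nm1054*, or 0.0199% of all probes. They were 3 probes of *Dbi*, 1 of *3110009E18Rik*, 1 of *Mcm6*, 1 of *Cntn2*, 1 of *Npm3-ps1* and 2 with no gene name. When the probes of each gene were averaged first, 3 of 21946 genes were called (0.0137%), *Dbi*, *3110009E18Rik* and *Mcm6*. The mean difference of *Mcm6* (0.97) rested mostly on its 1 called probe (3.11). *Csrp1* and *Chil1* joined the 3 genes once *nm1054* 129 replicate 2 was left out, which gave 5 genes. *Slc4a1* joined the 3 when the 129 arrays were fitted alone, which gave 4 genes.

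Below the threshold of the call, an unadjusted p under 0.05 was reached by 1198 probes (2.65%), 207 higher and 991 lower in *nm1054*. This surplus of lower probes was smaller when the arrays were brought to a common level, and its cause was not tested. The median difference over all probes was -0.0472, and after each array was centred on its own median the same count was 535 higher and 784 lower. Quantile normalization gave 1121 higher and 1259 lower. The count of lower probes also depended on single arrays. It was 390 without WT 129 replicate 1, 628 without replicate 2 and 1689 without replicate 3 of that group. Without *nm1054* 129 replicate 2 it was 1748, without *nm1054* 129 replicate 3 it was 349, and without WT B6 replicate 1 it was 1788. The 3 brains of a genotype did not overlap the 3 of the other at 5006 probes (11.1%). Such a split has p = 0.1 in an exact permutation test of 3 against 3 brains. A lack of overlap alone therefore says little about a single probe.

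**Figure D1:**
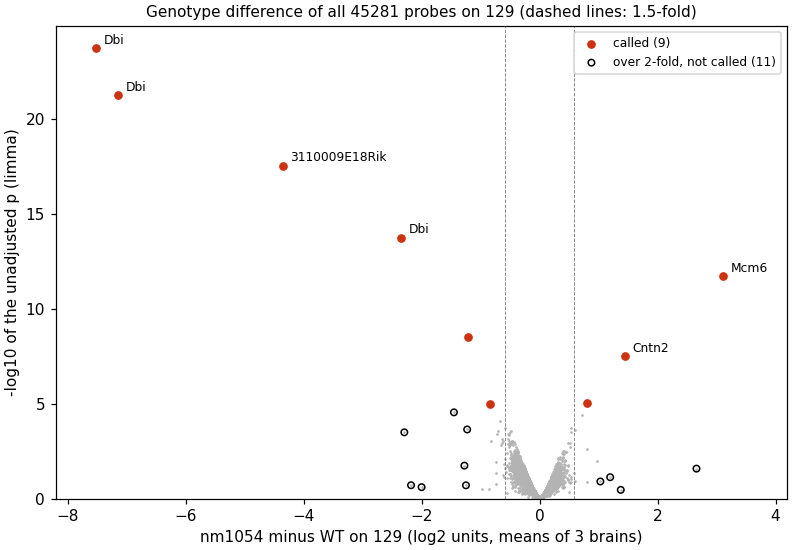
Difference of every probe between the means of 3 *nm1054* and 3 WT brains on 129 (x axis, log2 units) against the unadjusted p of limma on a -log10 scale (y axis). The 9 called probes are filled circles, the 11 probes over 2-fold that were not called are open circles, and dashed lines mark 1.5-fold. Of the 45281 probes, 45238 lie between these lines.

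The largest differences of any probe were at 2 of the 3 probes of *Dbi*. At ILMN_3150159 the WT brains had values of 3.72, 3.77 and 3.71, and the *nm1054* brains -3.71, -3.85 and -3.81. The genotypes lay far apart with little spread within either. The difference was -7.52 (SE 0.10, 95% interval -7.74 to -7.31, adjusted p = 9.03e-20), which is 184-fold lower in *nm1054*. At ILMN_1215469 the WT values were 3.35, 3.54 and 3.45 and the *nm1054* values -3.71, -3.63 and -3.76, a difference of -7.15 (SE 0.13, adjusted p = 1.33e-17). The third probe, ILMN_3071356, gave 1.18, 1.17 and 1.27 in WT and -1.15, -1.07 and -1.21 in *nm1054*, a smaller difference of -2.35 (SE 0.11, adjusted p = 2.08e-10). The 3 probes of *Dbi* thus differed in the size of their drop from 5.11-fold to 184-fold. Which transcripts of the gene each probe binds was not analysed here, and the values do not show where the background of each probe lies.

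*3110009E18Rik* fell alongside *Dbi*. Its single probe had values of 2.19, 2.26 and 2.39 in WT and -2.02, -1.92 and -2.28 in *nm1054* brains. The difference was -4.35 (SE 0.13, adjusted p = 4.72e-14), or 20.4-fold. On B6 the same 4 probes differed by -7.97, -7.28 and -2.55 for *Dbi* and -4.39 for *3110009E18Rik*, and the interaction, the difference on 129 minus that on B6, passed an adjusted p under 0.05 for none of them. Those interactions were 0.45, 0.13, 0.20 and 0.04 log2 units, with an adjusted p of 1.00 each.

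**Figure D2:**
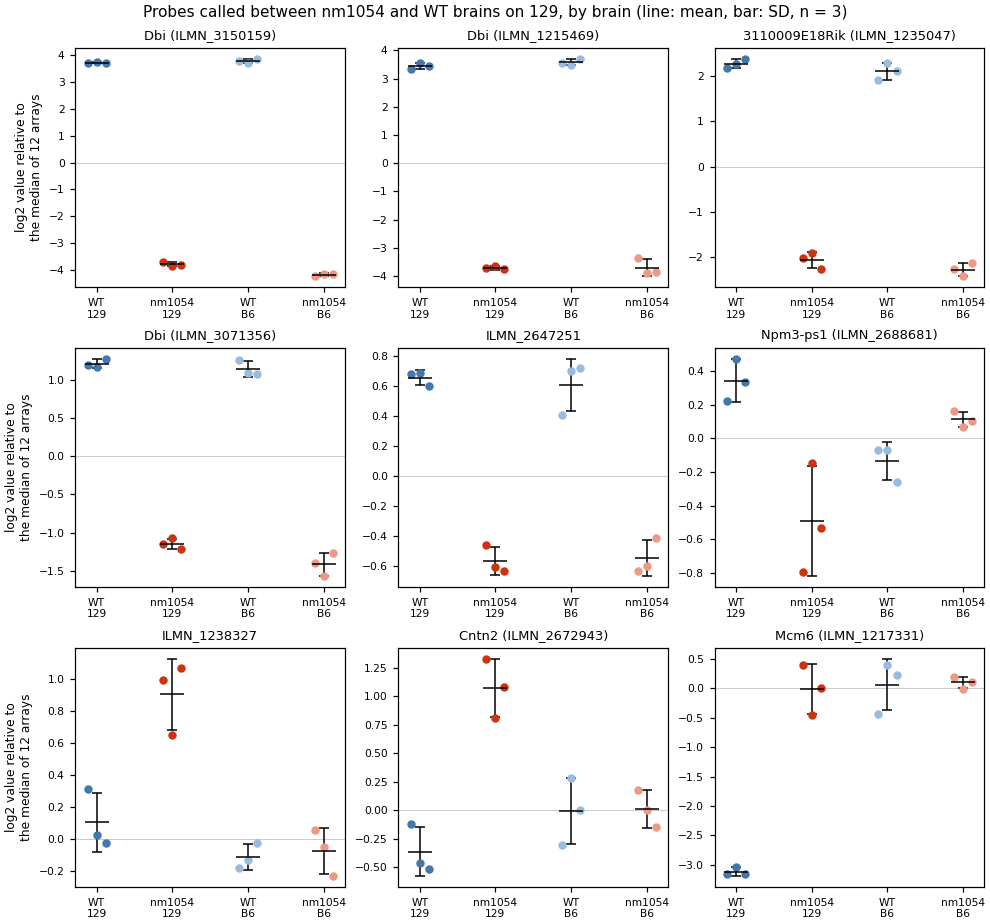
Values of the 9 called probes in all 12 brains (y axes, log2 value relative to the median of the 12 arrays, on a scale of its own in each panel), by group (x axes). Points are brains, horizontal lines means and bars SD of 3 brains. The *Dbi* and *3110009E18Rik* probes separate *nm1054* from WT on both backgrounds, and *Mcm6* is low in the WT 129 brains alone.

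The other deleted genes were not called, although the deletion removes them. *Cfap221* had values of 0.49, 0.21 and 0.33 in WT and -0.07, -0.03 and -0.32 in *nm1054* brains. The genotypes did not overlap, and the difference was -0.48 (SE 0.13, adjusted p = 1.00), with -0.49 on B6. The 2 probes of *Sctr* differed by -0.38 (SE 0.14) at ILMN_3073395 and -0.31 (SE 0.13) at ILMN_3152204, both with an adjusted p of 1.00. At *Tmem37* the difference was 0.09 (SE 0.12), with a 95% interval from -0.17 to 0.35. *Steap3* differed by -0.01 (SE 0.17) at ILMN_1244848 and 0.06 (SE 0.12) at ILMN_2512949. The 95% intervals at *Steap3* ran from -0.36 to 0.35 and from -0.19 to 0.31. At *Tmem37* and *Steap3* the brains with and without the gene overlapped, and the arrays did not separate them.

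*Mcm6*, which encodes a subunit of the MCM helicase that unwinds DNA during replication, was higher in *nm1054* brains at ILMN_1217331. The WT brains had values of -3.17, -3.03 and -3.16 and the *nm1054* brains 0.40, -0.45 and 0.01. The 3 WT brains were the low ones. The *nm1054* brains lay within the range of the 6 B6 brains (-0.43 to 0.40) except for replicate 2, which was at -0.45. The difference was 3.11 (SE 0.19, 95% interval 2.70 to 3.51, adjusted p = 1.83e-08), or 8.61-fold. On B6 the same probe differed by 0.04 (SE 0.19), and the interaction of 3.07 (SE 0.27, adjusted p = 4.15e-05) was the only one of 45281 probes (0.00221%) under an adjusted p of 0.05. WT B6 brains exceeded WT 129 brains by 3.19 at this probe. Where the probe binds within the gene, and whether the sequence there differs between the strains, was not analysed here, so the value may not be read as a level of the whole transcript.

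Other probes of *Mcm6* differed less. The WT values at ILMN_1233857 were -0.50, -0.28 and -0.35 and the *nm1054* values 0.20, 0.05 and 0.23, a difference of 0.53 (SE 0.12, adjusted p = 0.650). ILMN_2803399 gave -0.40, -0.38 and -0.15 against 0.28, 0.07 and 0.29, also 0.53 (SE 0.12, adjusted p = 0.709). ILMN_1236125 gave -0.29 (SE 0.12, adjusted p = 1.00), in the opposite direction. A difference of the size at ILMN_1217331 was therefore seen at 1 of 4 probes of the gene, and at 2 more the genotypes did not overlap and differed in the same direction without being called. Of 24 other genes of the MCM helicase and of the proteins that load it, limma called 0 and 0 reached an unadjusted p under 0.05, with a median difference of -0.0453 against -0.0461 over all genes. The smallest p among them belonged to *Mcm8* (-0.20), *Gins2* (-0.16) and *Mcm3* (0.16).

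The window at the start of *Mcm6* is shown because the gene holds the only probe with a called interaction, although the mean of its 4 probes had an interaction with an adjusted p of 0.0691. It spans 250 bases before to 50 after the start and lies at chr1:128359656-128359955 on the minus strand (RefSeq, GRCm38.p6), with the letters CCAAT and TTTGGCGC, the latter a form of the E2F site, in capitals where they occur on either strand.
*Mcm6*: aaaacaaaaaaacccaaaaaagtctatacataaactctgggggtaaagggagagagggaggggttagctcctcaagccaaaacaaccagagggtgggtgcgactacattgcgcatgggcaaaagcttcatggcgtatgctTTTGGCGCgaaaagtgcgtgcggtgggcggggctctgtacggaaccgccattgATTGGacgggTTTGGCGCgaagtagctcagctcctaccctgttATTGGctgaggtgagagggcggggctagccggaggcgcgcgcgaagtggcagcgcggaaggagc
Both strands were searched. The window holds 2 matches to TTTGGCGC, which 0.514% of the 32851 windows of this length in the table contain, and 2 to CCAAT, which 37.4% contain. The window of *Cntn2* holds neither. The letters are those of the reference and not of the mice measured.

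*Cntn2*, which encodes contactin-2, an adhesion protein on growing axons, was higher in *nm1054* brains at ILMN_2672943. The values were -0.12, -0.46 and -0.52 in WT and 1.33, 0.81 and 1.08 in *nm1054* brains. All 3 *nm1054* brains lay above every other brain of the series, the B6 brains spanning -0.30 to 0.28. The difference was 1.44 (SE 0.16, adjusted p = 2.06e-04), or 2.71-fold, and on B6 it was 0.02 (SE 0.16). The interaction of 1.42 (SE 0.23) had an adjusted p of 0.0815 and was not called with all 12 arrays. It was called after centring, quantile normalization or array weights, after removal of the less variable probes, and without *nm1054* 129 replicate 2 or WT B6 replicate 1. A second probe, ILMN_1237629, differed by 0.72 (SE 0.14, adjusted p = 0.170), with -0.04, -0.28 and -0.38 in WT and 0.53, 0.28 and 0.66 in *nm1054* brains. Without WT B6 replicate 1 its adjusted p was 0.0302, and it was called in 4 of 23 alternative settings. The remaining probes gave -0.10 (SE 0.14) and -0.24 (SE 0.15). Of 17 other contactins and contactin partners, limma called 0 and 0 reached an unadjusted p under 0.05, with a median of -0.059.

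The last 3 called probes had smaller differences. ILMN_2647251, with no gene name, had values of 0.68, 0.69 and 0.60 in WT and -0.46, -0.60 and -0.63 in *nm1054* brains, a difference of -1.22 (SE 0.12, adjusted p = 2.28e-05). On B6 it differed by -1.16 (SE 0.12, adjusted p = 6.56e-05). ILMN_1238327, also unnamed, was higher by 0.80 (SE 0.13, adjusted p = 0.0498), with 0.31, 0.03 and -0.03 against 0.99, 0.65 and 1.06, and by 0.04 on B6. *Npm3-ps1*, a pseudogene on chromosome 6 whose probes could also bind the transcript of its parent gene, was lower at ILMN_2688681 (-0.84, SE 0.14, adjusted p = 0.0498). Its values were 0.22, 0.47 and 0.34 in WT and -0.80, -0.14 and -0.54 in *nm1054* brains. The other *Npm3-ps1* probe gave -0.35 (SE 0.11, adjusted p = 1.00). ILMN_1238327 and *Npm3-ps1* stood at the edge of the threshold, and both lost their call without any of 9 of the 12 arrays, taken singly, or when the sex of the brains entered the fit. With that covariate 8 probes were called, 7 of the 9 and a probe of *Clasp1*.

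Of the 9 called probes, 6 lie on chromosome 1, the 4 of the deleted genes with *Mcm6* and *Cntn2*. In the order of protein-coding genes *Mcm6* is the 24th gene beyond the deletion and *Cntn2* the 68th. The 50 nearest genes on either side had 157 probes of 89 genes on the array. Among these, 13 probes (8.28%) reached an unadjusted p under 0.05, against 2.65% of all probes, and the genotypes did not overlap at 18.5%, against 11.1%. The 13 included all 4 probes of *Mcm6*, of which ILMN_1236125 was lower in *nm1054*. The share was 5.26% of 76 probes on the side of *Clasp1* and 11.1% of 81 on the side of *Mcm6*. For the genotype difference on B6, 6.37% of the same 157 probes reached that p, against 6.12% of all probes. On the rest of chromosome 1 the share on 129 was 2.45% of 1796 probes. Over 12 fits that each left out 1 array the share beside the deletion was 6.37% to 12.1% and that of all probes 1.19% to 4.96%. The shares were closest without *nm1054* 129 replicate 2 (7.64% against 4.37%) and without WT 129 replicate 3 (7.64% against 4.09%). With the 129 arrays alone it was 14.7% against 5.45% of all probes, and with array weights 22.9% against 13.5%.

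*Clasp1*, 9 genes from the deletion, encodes a protein that stabilises the growing ends of microtubules. At ILMN_1225769 it had values of 1.52, 1.05 and 0.83 in WT and -0.25, -0.28 and -0.43 in *nm1054* brains. The WT 129 brains were the high ones, and the B6 brains ranged from -1.11 to 0.29. The difference was -1.45 (SE 0.27, adjusted p = 0.131), with 0.12 on B6. Its adjusted p was 8.15e-05 without WT B6 replicate 1, the array at -1.11, and 2.72e-04 when the 6 arrays of 129 brains were fitted alone. The probe was called in 7 of 23 alternative settings and not in the others. The other 3 probes of *Clasp1* gave 0.30, -0.08 and -0.07.

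*C1ql2*, the next gene beyond the deletion, encodes a secreted protein of synapses. It had values of 0.68, 1.02 and 0.51 in WT and -0.15, -0.25 and -1.07 in *nm1054* brains. The WT B6 brains had 1.13, -0.13 and -0.01. The difference was -1.23 (SE 0.27, adjusted p = 0.676), with -0.34 on B6. The adjusted p was 0.0103 without WT B6 replicate 1, the array at 1.13, and the probe was called in 4 of 23 alternative settings. Smaller differences beside the deletion, with none called, were found at *Yod1*, a deubiquitinase gene (0.51), *Cxcr4*, the gene of a chemokine receptor (-0.39), *Actr3*, of the Arp2/3 actin complex (-0.37), *Gin1* (-0.33), *Srgap2* (0.31), *Ppip5k2* (0.29) and *Epb41l5* (-0.28). *Cxcr4* had a single probe, and the other probes of the rest did not reach an unadjusted p under 0.05. The other *Yod1* probe gave 0.02. On B6 the named probes differed by 0.44 (*Yod1*), -0.02 (*Cxcr4*), -0.06 (*Actr3*), -0.28 (*Gin1*), 0.16 (*Srgap2*), -0.02 (*Ppip5k2*) and 0.32 (*Epb41l5*). The value of *Epb41l5* was opposite to that on 129, and those of *Cxcr4* and *Ppip5k2* were near 0.

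**Figure D3:**
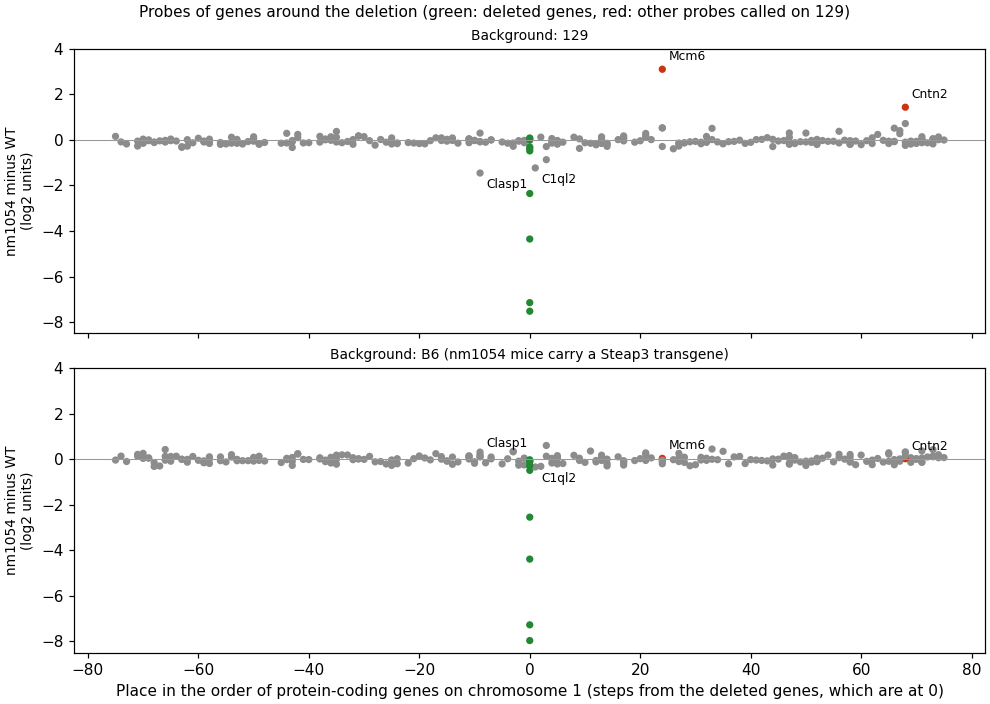
Difference between *nm1054* and WT brains (y axes, log2 units) of the probes of protein-coding genes on chromosome 1, by place in the gene order (x axis, steps from the deleted genes at 0), on 129 (top) and B6 (bottom). Each point is a probe, green for the deleted genes and red for other probes called on 129. *Mcm6* and *Cntn2* stand above 0 on 129, at 3.11 and 1.44, and near 0 on B6.

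At a few genes some *nm1054* brains were far from WT and others were not. *Csrp1*, which encodes a LIM domain protein of the actin cytoskeleton, had values of -0.39, -0.37 and -0.35 in WT brains. In *nm1054* brains it had -3.71, -0.46 and -3.83. Replicates 1 and 3 were far below the WT brains and replicate 2 was beside them, so that the difference of -2.29 had an SE of 0.52 and an adjusted p of 0.715. Without *nm1054* 129 replicate 2 it was -3.40 (adjusted p = 3.25e-11). The probe was called in 3 of 23 alternative settings. *Csrp1* is the 117th gene beyond the deletion on chromosome 1.

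A probe each of *Smug1* and *Chil1* was also called without *nm1054* 129 replicate 2. A call gained by leaving out a brain favours probes at which that brain lay near WT. The order of the brains at these probes therefore follows partly from their choice, and the share of all probes with such an order was not counted. *Smug1*, a uracil repair glycosylase gene on chromosome 15, had 0.14, 0.02 and 0.01 in WT and -1.14, -0.01 and -1.14 in *nm1054* brains at ILMN_2620520. Its other probe, ILMN_1236173, did not share this order, with -0.08, -0.04 and 0.15 in *nm1054* brains and a difference of -0.20. *Chil1*, a chitinase-like gene on chromosome 1, had 0.37, 0.58 and 0.78 in WT and -0.29, 0.40 and -0.29 in *nm1054* brains. *Slc6a3*, which encodes the dopamine transporter, followed a like order, with 0.04, 0.51 and 0.38 in WT and -1.27, -0.04 and -1.59 in *nm1054* brains. Its values also varied widely on B6, with 1.02, -1.70 and -0.89 in WT and 0.15, 0.69 and -0.88 in *nm1054* brains. *Chil1* was chosen after its values were seen. The sex-linked genes separated the brains in another way, with *nm1054* 129 replicate 1 on the side of high *Xist*.

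Of the 18 probes over 2-fold, 11 were not called. They included 3 probes of *Xist* and 1 of the Y-linked gene *Eif2s3y*, which followed the sex of each brain. They also included 3 pituitary hormone genes. *Gh*, which encodes growth hormone, had values of 1.05, -0.18 and -0.09 in WT and 7.52, -0.06 and 1.29 in *nm1054* brains. *Pomc*, the precursor of corticotropin, had 4.04 and *Cga*, the common subunit of pituitary hormones, 3.78 in *nm1054* 129 replicate 1, while in the other 5 brains *Pomc* was at most 0.36 and *Cga* at most 0.80. Among the 12 measured genes of the pituitary and pineal list, the median value was 0.272 in *nm1054* 129 replicate 1 and between -0.177 and 0.0895 in the other 5 brains. The mean was 1.59 in that brain, carried mostly by these 3 genes, and between -0.0515 and 0.171 in the others. Leaving out that brain removed the calls of ILMN_1238327 and *Npm3-ps1*, as leaving out most other arrays did, and added none.

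**Figure D4:**
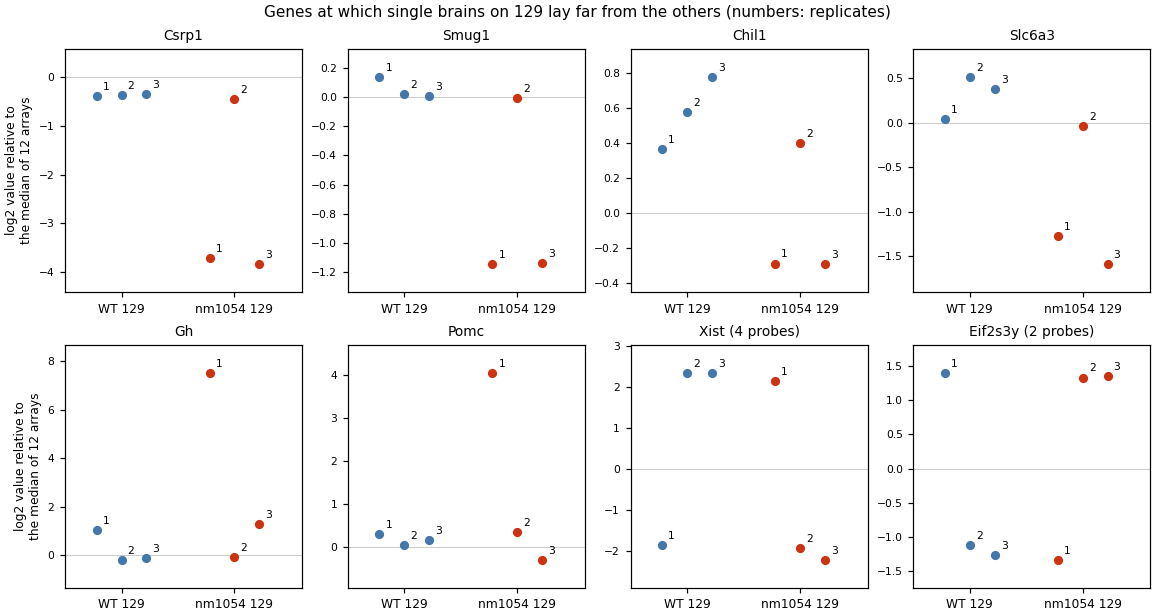
Values of 8 genes in the 6 brains on 129 (y axes, log2 value relative to the median of the 12 arrays; x axes, WT and *nm1054* groups), with the replicate number beside each point. *Csrp1*, *Smug1*, *Chil1* and *Slc6a3* are low in *nm1054* replicates 1 and 3, *Gh* and *Pomc* are high in replicate 1, and *Xist* and *Eif2s3y* mark which brains had female or male signal.

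Other differences without a call were under 2-fold. Among the 10 largest positive differences at which the genotypes did not overlap was *Slc4a1*, the anion exchanger of red cells, with -0.53, -0.43 and -0.52 in WT and 0.53, 0.58 and 0.34 in *nm1054* brains. Its difference of 0.98 had an SE of 0.34 (adjusted p = 1.00), the WT B6 brains ranging from -0.41 to 1.91. *Rsad2*, which encodes the interferon-induced protein viperin, had -0.20, -0.32 and -0.39 in WT and 0.29, 0.49 and 0.70 in *nm1054* brains, a difference of 0.80 (SE 0.23, adjusted p = 1.00). Both were called when the 129 arrays were fitted alone, with an adjusted p of 6.54e-04 and 0.0291, and in no other of 23 alternative settings. The other positive differences belonged to *Spin1* (0.58), *Rbbp5* (0.52), *Ankrd37* (0.48), *Itgav* (0.48) and *Ptbp2* (0.46), together with the probes of *Cntn2*, *Mcm6* and *Yod1* given above. *Spin1* differed by 0.48 and 0.19 at its other probes, whereas other probes of *Rbbp5* (-0.06 and -0.08) and *Ptbp2* (-0.38 and -0.01) did not share its direction. The other 3 probes of *Itgav* gave 0.11, 0.05 and -0.09.

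The largest negative differences, after *Csrp1*, *Clasp1*, *Slc6a3*, *C1ql2* and *Smug1*, were at *Dkkl1*, *Pdpk1*, *Plp2*, *Flrt1* and *Stk32c*. *Dkkl1*, related to the Dickkopf proteins that oppose Wnt signals, had 0.65, 0.57 and 0.52 in WT and -0.07, 0.03 and -0.22 in *nm1054* brains. Its difference was -0.67 (SE 0.13, adjusted p = 0.312), and its other probes gave -0.44 and -0.05. *Stk32c*, a kinase gene, differed by -0.54 (SE 0.13, adjusted p = 0.785). *Pdpk1*, a kinase of insulin signaling, gave -0.57 and -0.75 at its 2 probes, with WT 129 replicate 1 high at both (0.78 and 0.99). *Plp2* on the X chromosome gave -0.56 and *Flrt1*, an adhesion protein gene, -0.55.

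Apart from *Dbi* and *3110009E18Rik* themselves, no deleted gene and no member of the pathways around the deleted genes was called. Over all genes, 2.63% had an unadjusted p under 0.05, 32.5% lay above 0 and the median difference was -0.0461. Of 9 measured genes of acyl-CoA binding and *Tspo*, the mitochondrial partner of the acyl-CoA-binding protein, 1 reached that p, *Acbd7*, at -0.23 (SE 0.10), and the median was -0.0966. Of 21 genes of fatty acid synthesis 1 did, *Fabp3* (-0.25), with a median of 0.00918. Of 17 genes of fatty acid oxidation 1 did, *Slc25a20* (-0.19), with a median of -0.0333. Of 15 cholesterol synthesis genes 0 did, and the median was -0.0251. The 9 measured GABA-A receptor subunits spanned -0.18 to 0.09, and 0 reached that p. In the secretin family 1 of 10 did, *Sct*, the gene of secretin, with 0.35, 0.19 and 0.22 in WT and 0.01, 0.09 and -0.25 in *nm1054* brains (-0.31, SE 0.12). Of 21 iron handling genes 1 did, *Slc25a37*, the mitochondrial iron importer of red cell precursors, at 0.24 (SE 0.10).

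Genes of motile cilia showed no call. Of 55 measured genes of the axoneme, the dynein arms and the programme of multiciliated cells, 1 reached an unadjusted p under 0.05 and 15 (27.3%, against 32.5% of all genes) lay above 0. That gene was *Dnaic1*, a dynein arm component, with 0.26, 0.23 and 0.13 in WT and 0.01, -0.02 and -0.14 in *nm1054* brains (-0.26, SE 0.11, adjusted p = 1.00). The median of the list was -0.034 and its range -0.26 to 0.25. *Spef2*, another gene of the ciliary axoneme, differed by -0.22 and *Gmnc*, which starts the multiciliated programme, by -0.19. Of 26 genes linked to hydrocephalus 2 reached that p, *Otx2* (-0.50) and *Aqp4* (-0.31), with a median of -0.0178. Of 15 choroid plexus genes 1 did, again *Otx2*, and 1 lay above 0, with a median of -0.128. The median value of the choroid plexus list was -0.321 in *nm1054* 129 replicate 3 and between -0.0921 and 0.0524 in the other 5 brains.

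Most markers of blood vessels lay above 0, with none called. Of 21 measured genes of endothelium and pericytes, 18 lay above 0 and 4 reached an unadjusted p under 0.05, all higher in *nm1054*, and the median was 0.0896. *Pecam1*, an endothelial adhesion gene, had -0.27, -0.08 and 0.01 in WT and 0.34, 0.12 and 0.30 in *nm1054* brains (0.37, SE 0.11, adjusted p = 1.00). *Eng*, a coreceptor of endothelial cells, differed by 0.39 and *Pdgfrb*, a pericyte receptor, by 0.28. The fourth was *Ly6c1* at 0.36, chosen after its value was seen. The median value of the list was 0.185, 0.115 and 0.0265 in the *nm1054* brains and -0.128, -0.0296 and 0.00359 in the WT brains, and on B6 the median difference was -0.0353. In the hypoxia response 2 of 21 genes reached that p, *Pdk1* (0.26) and *Ankrd37* (0.48), with a median of 0.00826.

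Lists of other cells were not called either. Red blood cell genes had 2 of 15 at an unadjusted p under 0.05, *Slc4a1* and *Alas2*, an enzyme of heme synthesis (0.42). Of the 15, 4 (26.7%, against 32.5% of all genes) lay above 0, and the median was -0.0488. Of 20 genes of radial glia and astrocytes 3 reached that p, all lower, *Sox9* (-0.31), *Ntsr2* (-0.35) and *Aqp4*, with a median of -0.0555. Of 23 neuronal genes *Eomes* (0.35) and *Rbfox3* (-0.26) did, with a median of -0.0486. Of 21 genes of dividing progenitors *Bub1* (-0.27) did, with a median of -0.0122. Microglia (17 genes), the oligodendrocyte lineage (14) and meninges (14) had 0, with medians of -0.0334, -0.103 and -0.0656. Of 18 genes of muscle, bone and skin *Krt14* (-0.19) reached that p, with a median of -0.116. In the pituitary and pineal list *Gh* did, in 1 of 12 genes, and the median was 0.0964. Of 17 immediate early genes *Egr4* (-0.44) did, with a median of -0.0938. Of 18 genes of the interferon response and MHC *Rsad2* did, with a median of -0.0534, and of 19 targets of the Atf4 stress response 0 did, with a median of -0.0144.

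**Figure D5:**
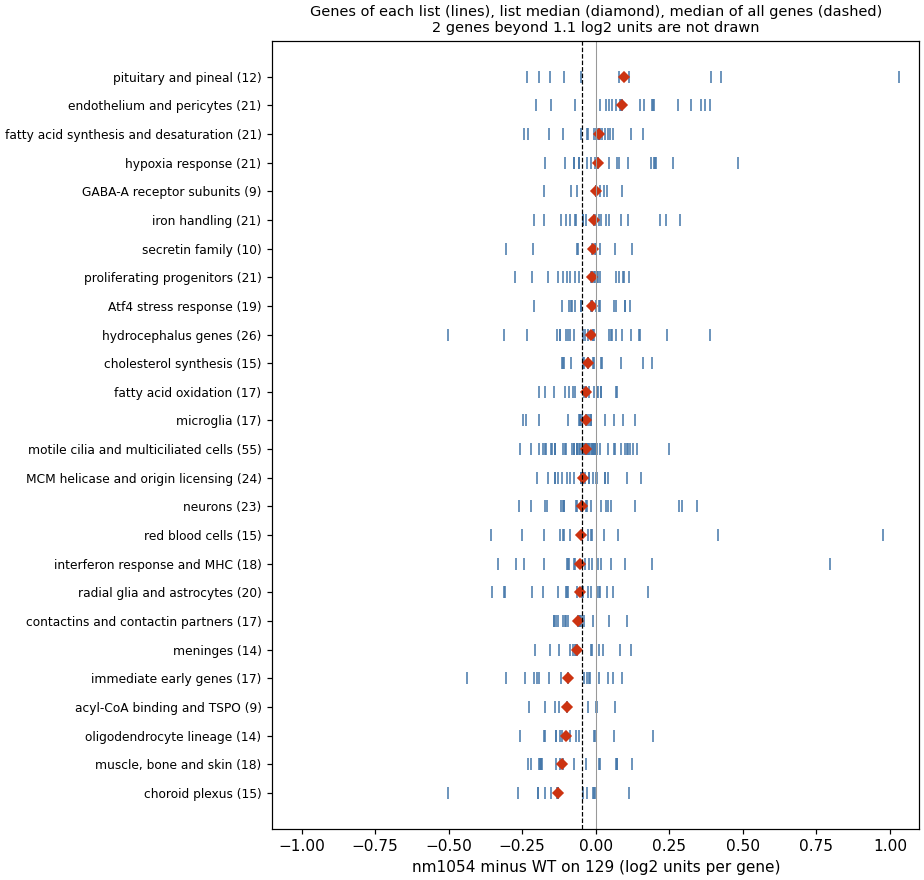
Difference between *nm1054* and WT brains on 129 (x axis, log2 units) for each gene of 26 lists (y axis, with the number of genes measured). Thin lines are genes, diamonds list medians and the dashed line the median over all genes (-0.0461). The endothelium and pericyte median lies at 0.0896 and the choroid plexus median at -0.128.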

How the data were processed

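Whole brains of P1 mice were hybridised to Illumina MouseWG-6 arrays, with 3 brains in each of 4 groups of genotype and background. The authors read intensities in GenomeStudio and used GeneSpring GX for normalization. Their deposited log2 values are differences from a probe's own median across the 12 arrays. Software versions, the kind of normalization and a genome build are not given in the sources used here. The deposited values hold no signal level or detection call, so no filter on dim probes was possible. Precision is limited by how many arrays there are.

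Every one of the 45281 probes entered the fit. A gene symbol was given to 35784 probes (21946 genes), 28620 through the gene identifier of the platform annotation, 2637 through a transcript accession and 4527 as that annotation names them, and 9497 stayed unnamed. RefSeq GRCm38.p6 gave names, gene order and the promoter windows of *Mcm6* and *Cntn2*.

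limma 3.58.1 in R 4.3.3 fitted a mean for each group over the 12 arrays (8 residual and 10.8 prior degrees of freedom). Tests are two-sided with Benjamini-Hochberg adjustment over all probes or all genes, and a gene is the mean of its probes. Intervals are 95%. The interaction is the difference on 129 minus that on B6. An exact permutation test of 3 against 3 brains cannot go below p = 0.1 and is not used for calls. The script was tested on simulated data.

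The comparison, the 28 gene lists and the rule for named genes were chosen with earlier results of these data known. The rule takes every called probe and the other probes of its gene, the deleted genes, the 10 largest uncalled differences in each direction at an unadjusted p under 0.05 without overlap (predicted and clone names skipped), up to 3 genes of smallest p per list, genes at an unadjusted p under 0.05 among the 50 nearest on either side of the deletion, and the sex-linked genes. Alternatives were a fit of the 129 arrays alone, a replicate block, quantile normalization, centring, array weights, removal of the less variable 50% of probes, robust variances, a sex covariate (mean of Y-linked minus mean of *Xist* probes), other fold thresholds, the unpaired t-test of the study's methods and each array left out in turn. Counts at an unadjusted p under 0.05 under these settings were added after seeing the data. Figures used matplotlib 3.10.9 (Python 3.11.15, pandas 2.3.3). Detection calls, quantitative PCR and pathway software were not analysed here.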

Additional observations from a re-analysis of the deposited data

Results flagged for a closer look

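The difference between *nm1054* and WT brains at *Mcm6* ILMN_1217331, 1 of 4 probes of the gene, stood out because it differed between the backgrounds by a direct test. It was 3.11 on 129 and 0.04 on B6, an interaction of 3.07 log2 units (SE 0.27, adjusted p = 4.15e-05 by limma). All 3 *nm1054* brains on 129 exceeded all 3 WT brains on 129, while the 2 genotypes overlapped on B6. The *nm1054* B6 mice carried the *Steap3* transgene, and the part of the transgene in the interaction was not tested. Groups of 3 brains are too small for a test of single outlying samples.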

How the results depend on the processing

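The count of called probes (9) was 7 to 13 with 1 array left out, 8 to 13 under the other fits of the planned settings except array weights, which gave 31, and 7 at a fold over 2. The methods' t-test called 4 after Benjamini-Hochberg adjustment, the *Dbi* and *3110009E18Rik* probes, and 22 probes had an unadjusted p under 0.05 in that test at the same fold. The *Dbi* and *3110009E18Rik* probes were called in every setting, and *Mcm6* ILMN_1217331, *Cntn2* ILMN_2672943 and ILMN_2647251 in every setting but the t-test. ILMN_1238327 lost its call in 14 and *Npm3-ps1* in 15 of 23 settings. Called genes (3) were 3 to 5 with 1 array left out, 5 without *nm1054* 129 replicate 2, 4 with the 129 arrays alone, and 16 with array weights. Interaction calls among called probes (1) were 3 with quantile normalization, 2 after centring or removal of the less variable probes, 10 with array weights, and 1 to 5 with 1 array left out, 5 without *nm1054* 129 replicate 2 and 2 without WT B6 replicate 1. The cause of these changes was not tested.

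Same-numbered brains did not deviate together (correlations of -0.0942, 0.0186 and 0.0996), so the numbers were not taken as pairs. A replicate block called 9 probes, 8 of them the same, and 3 genes, and 1 interaction.

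Differences near 0 changed sign in 20 cases, 14 of them with 1 array left out. *Steap3* ILMN_1244848 was 0.046 after quantile normalization and 0.037 after centring, and *Ptbp2* ILMN_2672379 0.031 and 0.033. *Clasp1* ILMN_1247054 was 0.0053 with array weights, and *Yod1* ILMN_2886947 -0.034 with the sex covariate. With 1 array left out the ranges were -0.11 to 0.13 for *Steap3* ILMN_1244848, -0.11 to 0.11 for *Ptbp2* ILMN_2672379, -0.15 to 0.012 for *Clasp1* ILMN_1247054, -0.16 to 0.018 for *Clasp1* ILMN_1254008, -0.061 to 0.071 for *Yod1* ILMN_2886947, -0.19 to 0.016 for *Cntn2* ILMN_1249156, -0.16 to 0.058 for *Rbbp5* ILMN_2726109, -0.0015 to 0.14 for *Tmem37* and -0.0026 to 0.086 for *Itgav* ILMN_1234725. The endothelium and pericyte median ranged from 0.0889 to 0.159 over 20 settings.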
